A study of Ovis aries with 40 samples.

Results

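The genes described here encode parts of the immunoproteasome and of the pathway that presents its products on MHC class I molecules. They are PSMB8, PSMB9, PSMB10, PSME1, PSME2, B2M and TAP1, chosen by name. All 7 were among the 9155 genes that had a probe set with a single gene symbol on the array, and they were represented by 9 of its 24128 probe sets, 3 of them for B2M. All 7 passed the filter on low signals, a mean signal of at least 61.8, and were tested together with the 6360 genes that passed it.

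The RNA came from the longissimus dorsi (LD) muscle, called LM in the study, of 40 sheep at 78 weeks of age, with 1 array per animal. The animals were progeny of 6 Poll Dorset industry sires and were raised alike, with no treatment. High muscling animals (n = 19) descended from sires whose estimated breeding value (EBV), given for the depth of the eye muscle, was classed as high, namely sire 11 (8 animals), sire 2 (7) and sire 7 (4). Low muscling animals (n = 21) descended from sires classed as low, namely sire 16 (8), sire 17 (5) and sire 5 (8). The EBV is that of the sire, not a measurement of the animal, and the labels used here give neither dam nor sex. No sire had progeny in both groups, and the labels used here give no date or batch.

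The proteasome is a barrel of 4 stacked rings that cuts ubiquitin-tagged proteins into peptides, and 3 of the subunits of each inner ring carry its catalytic sites. Interferon gamma induces 3 replacement subunits, encoded by PSMB8, PSMB9 and PSMB10, and a barrel assembled with them is called the immunoproteasome. PSME1 and PSME2 encode the alpha and beta subunits of PA28, an interferon-induced cap that opens the barrel. TAP1 encodes part of the transporter that carries the peptides into the endoplasmic reticulum, where they are loaded on MHC class I heavy chains bound to beta-2-microglobulin, the product of B2M. These genes are expressed most strongly in cells of the immune system, and mature muscle fibres are known for low MHC class I at their surface. In the RefSeq annotation of the sheep genome (ARS-UI_Ramb_v3.0) TAP2, PSMB8, TAP1 and PSMB9 are neighbours in this order, and PSME2 and PSME1 are separated only by EMC9.

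All members gave clear signals in every array. Signals are MAS5 intensities on a linear scale, on which the 2% trimmed mean of each array is 200. The mean over the 40 animals was 6019 ± 1558 (SD) for B2M, 1227 ± 258 for PSME1, 1040 ± 217 for PSME2, 982 ± 303 for PSMB8, 722 ± 252 for PSMB9, 354 ± 98.2 for PSMB10 and 236 ± 50.3 for TAP1. Probe sets differ in how well they bind, more so for bovine probes on sheep RNA, so these signals do not rank the genes by RNA amount. On the log2 scale, over all 40 animals, PSMB9 varied most (SD 0.48) and PSME2 least (SD 0.29). Within high muscling animals PSMB8 varied most (SD 0.41, PSMB9 0.33) and PSME2 least (0.23). Within low muscling animals PSMB8 and PSMB9 both had an SD of 0.42, and TAP1 varied least (0.28).

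B2M, PSMB9 and PSMB10 were lower in high muscling than in low muscling animals. All 3 passed the test across all genes (limma with sire as a random block, Benjamini-Hochberg adjusted p over 6360 genes), and PSMB8, PSME1, PSME2 and TAP1 did not. Over all genes, 5.50% were called lower in high muscling animals and 2.28% higher, so the 3 of 7 members called lower stand beside 350 of 6360 genes, and no member was called higher. The estimate was negative for all 7 members, with a median of -0.26 (log2), against 3551 of 6360 genes and a median of -0.04 over all genes.

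**Figure D1:**
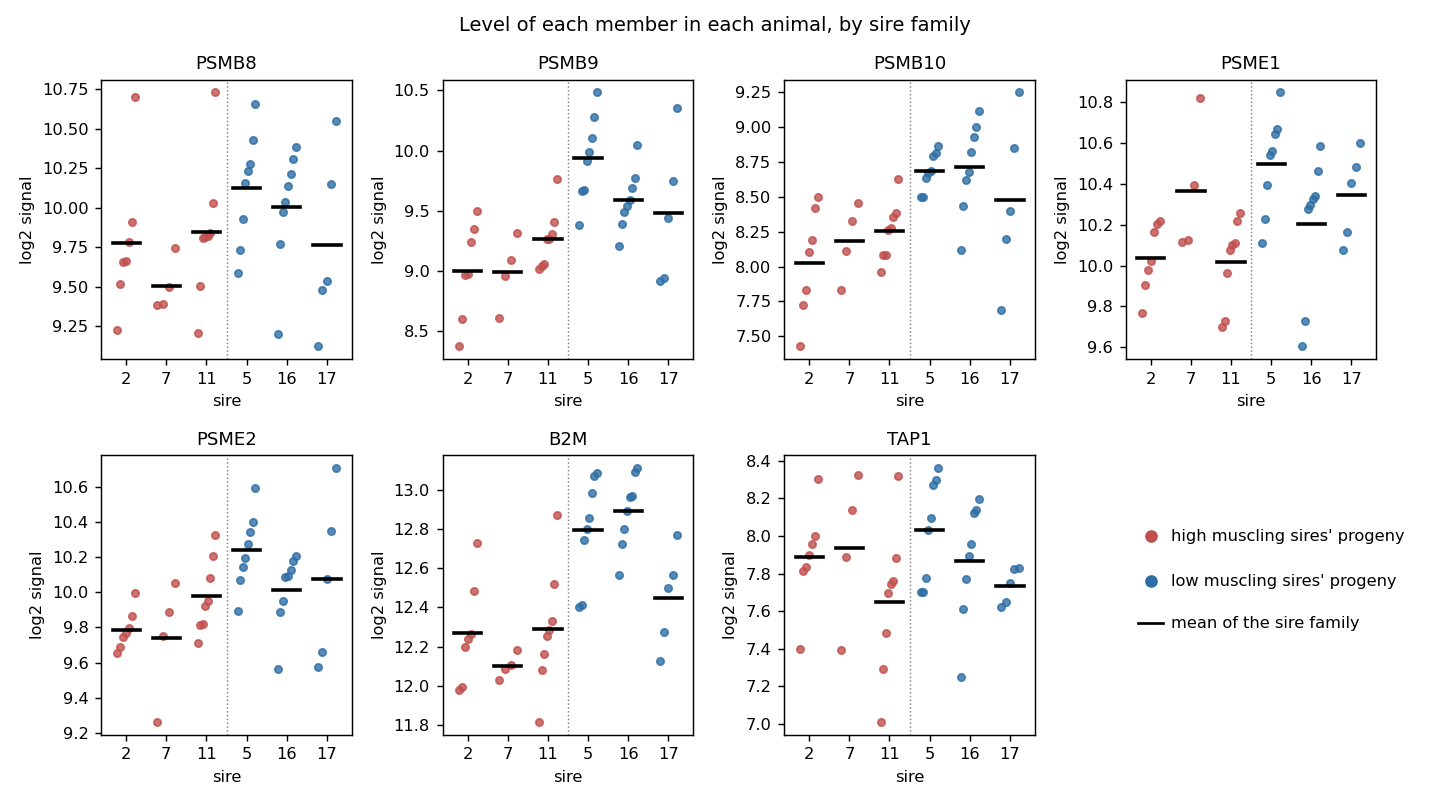
The log2 signal of each of the 7 members (vertical axis) in each of the 40 animals (points), by sire (horizontal axis); the progeny of high muscling sires (2, 7 and 11) are left of the dotted line, those of low muscling sires (5, 16 and 17) right of it, and black bars are family means. For PSMB9, PSMB10, PSME2 and B2M every high family mean lies below every low family mean, while single animals of the muscling groups overlap for every member.

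Among the catalytic subunits, PSMB9 (the replacement for PSMB6) ranged from 331 to 870 with a median of 543 in high muscling animals, and from 482 to 1431 with a median of 816 in low muscling animals. Of the high muscling animals, 18 of 19 lay below the low median, but the ranges overlapped, and 8 of 21 low muscling animals exceeded every high muscling animal. The level was 1.50-fold higher in low muscling (95% interval 1.19 to 1.88), a high minus low difference of -0.58 (log2, SE 0.16, adjusted p = 0.0207).

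PSMB10, the replacement for PSMB7, ranged from 172 to 395 with a median of 292 in high muscling animals and from 206 to 607 with a median of 410 in low muscling animals. All 19 high muscling animals were below the low median, and 13 of 21 low muscling animals were above the highest of them. The difference was -0.48 (log2, SE 0.15, adjusted p = 0.0347), or 1.40-fold (1.14 to 1.71).

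PSMB8, the replacement for PSMB5, ranged from 590 to 1697 (median 857) in high muscling and from 557 to 1614 (median 1127) in low muscling animals, so the lowest value was that of a low muscling animal and the highest that of a high muscling animal. The highest signals in the high muscling group, 1697 in a progeny of sire 11 and 1662 in a progeny of sire 2, stood well above the next value of 1044. These animals also had the highest B2M signals of their group, 7498 and 6791. The difference in PSMB8 was -0.25 (log2, SE 0.18) and did not pass the test (adjusted p = 0.464), with an interval from 0.920 to 1.53-fold.

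The subunits of PA28 did not pass the test. PSME2 ranged from 613 to 1286 (median 902) in high muscling animals and from 756 to 1674 (median 1121) in low muscling animals, with 17 of 19 high muscling animals below the low median. Its difference was -0.26 (log2, SE 0.12, adjusted p = 0.176). PSME1 ranged from 832 to 1807 (median 1105) against 779 to 1842 (median 1344), a difference of -0.23 (log2, SE 0.12, adjusted p = 0.254). For PSME1 the groups covered almost the same range, and the highest high muscling animal, a progeny of sire 7, exceeded all but 1 low muscling animal.

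B2M, which encodes the beta-2-microglobulin of MHC class I, gave the smallest p of the members. Its signal ranged from 3600 to 7498 with a median of 4695 in high muscling animals and from 4472 to 8857 with a median of 7134 in low muscling animals. Of the low muscling animals, 8 of 21 exceeded every high muscling animal and 7 of 19 high muscling animals lay below every low muscling animal. The level was 1.41-fold higher in low muscling (1.20 to 1.67), a difference of -0.50 (log2, SE 0.12, adjusted p = 0.00731), which ranked 122 of 6360 genes by p.

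The other probe sets of B2M were dimmer, with mean signals of 1552 and 164, and followed the brightest with r = 0.64 and 0.42 over the 40 arrays. Their differences had the same sign, -0.28 (SE 0.17) and -0.23 (SE 0.16), but did not pass the test when put in the place of the brightest, with adjusted p of 0.354 and 0.432. The call for B2M thus rests on its brightest probe set, and with the mean over all its probe sets the difference was -0.34 (adjusted p = 0.0518).

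TAP1 was nearly level between the groups. It ranged from 129 to 320 (median 229) in high muscling animals and from 152 to 329 (median 227) in low muscling animals, with 9 of 19 high muscling animals below the low median. The difference was -0.08 (log2, SE 0.14, adjusted p = 0.814), with an interval from 0.869 to 1.28-fold, and its sign turned when sire 11 or sire 5 was left out. PSMB8 and PSMB9, between which TAP1 lies on the chromosome, had differences of -0.25 and -0.58, and the test of the difference between these genes was not made.

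**Figure D2:**
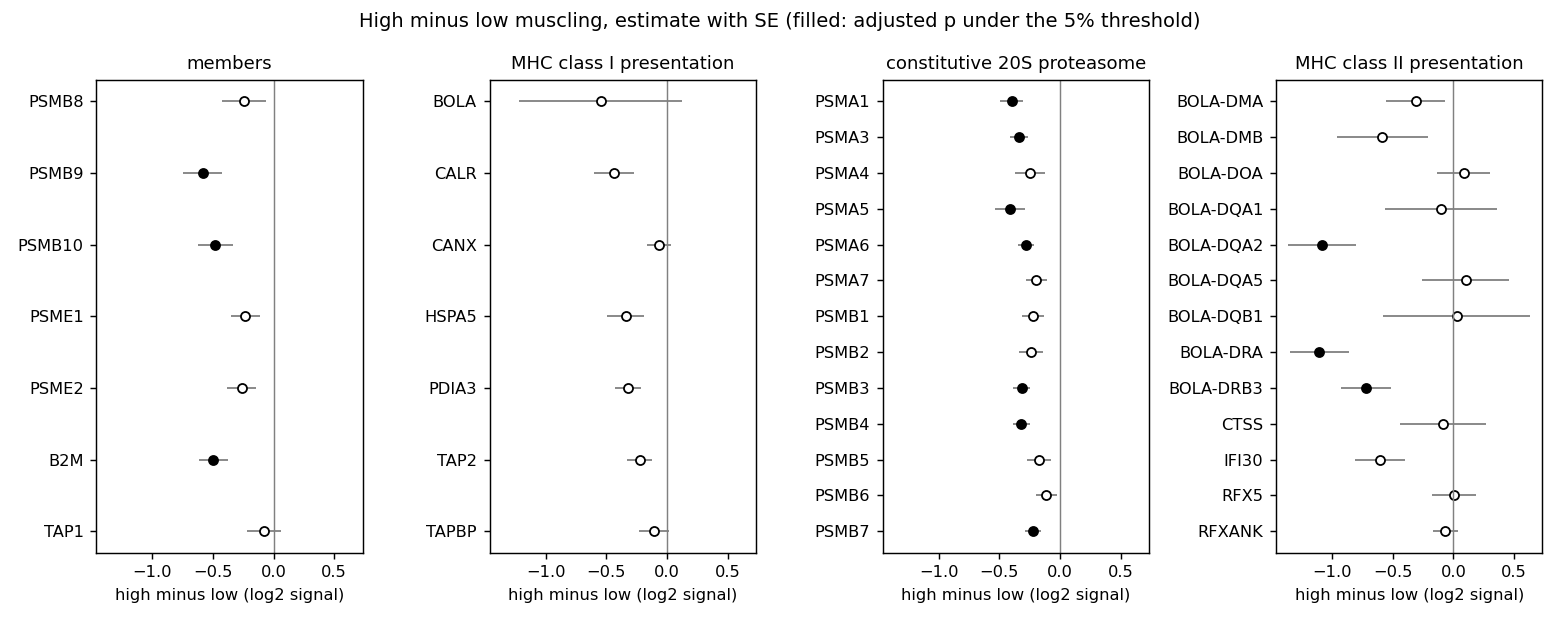
High minus low muscling difference in log2 signal (horizontal axis, 0 marked) with its SE, for the 7 members, 7 MHC class I presentation genes, 13 constitutive 20S proteasome genes and 13 MHC class II presentation genes; filled points passed the test across all genes. All members and all constitutive 20S genes lie left of 0, and the filled points number 3, 0, 7 and 3 in the 4 panels.

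The group difference and the sire cannot be separated freely, since each muscling group held the progeny of 3 sires. By family means, B2M stood at 12.29, 12.27 and 12.10 (log2 signal) for sires 11, 2 and 7, and at 12.89, 12.45 and 12.80 for sires 16, 17 and 5. PSMB9 stood at 9.265, 8.999 and 8.992 against 9.590, 9.479 and 9.937, and PSMB10 at 8.25, 8.03 and 8.18 against 8.71, 8.47 and 8.68. In these 3 genes and in PSME2, every high family mean was below every low family mean, which was also true of 11.4% of all genes tested. An exact two-sided permutation test over the 6 family means gave p = 0.1 for each of these 4 members, the smallest that 20 arrangements allow, p = 0.3 for PSMB8 and PSME1, and p = 0.7 for TAP1.

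**Figure D3:**
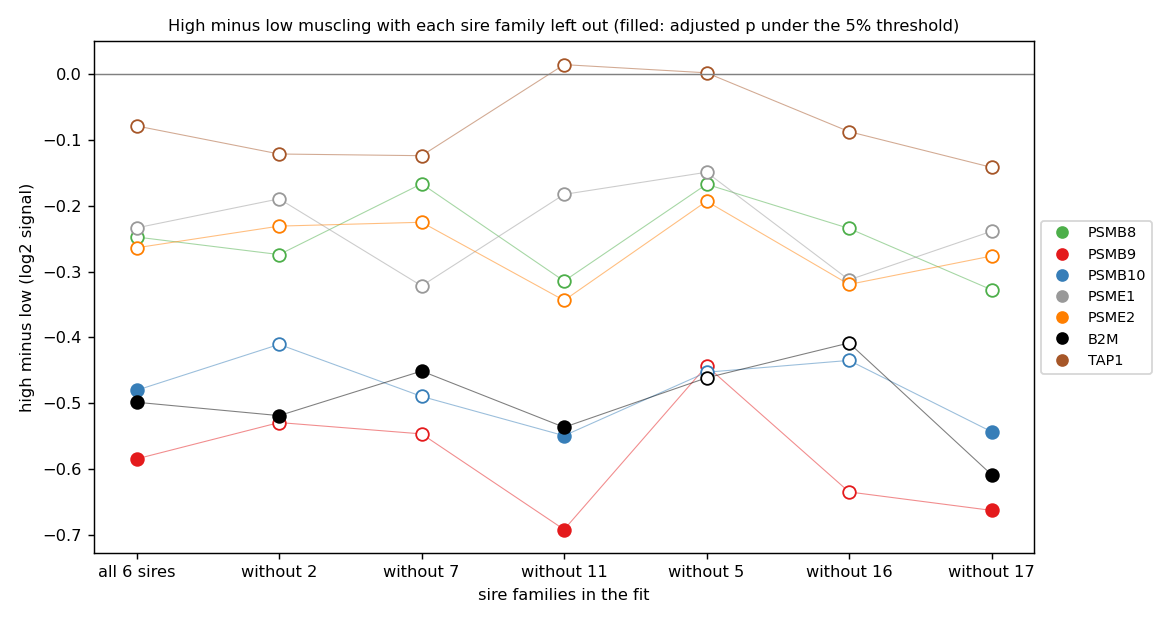
High minus low muscling difference in log2 signal (vertical axis) of each member with all 6 sires and with the progeny of each sire left out (horizontal axis); filled points passed the test across all genes in that fit. PSMB9, PSMB10 and B2M stay between -0.41 and -0.69 in all 7 fits, but none of them passed without sire 16 or sire 5.

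Leaving out the progeny of a sire kept the size of these differences more than their calls. PSMB9 ranged from -0.69 to -0.44, PSMB10 from -0.55 to -0.41 and B2M from -0.61 to -0.41 (log2). PSMB9 and PSMB10 lost the call without sire 2 (adjusted p = 0.0894 and 0.131), without sire 7 (0.0776 for both), without sire 16 (0.147 and 0.267) and without sire 5 (0.292 and 0.284). B2M lost it without sire 16 (adjusted p = 0.198) or sire 5 (0.132). With family means as samples, limma called none of the 6360 genes, 886 of them having an unadjusted p under 0.05, and the adjusted p was 0.224 for PSMB9, 0.225 for PSMB10 and 0.240 for B2M.

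The spiked hybridisation controls, control RNAs added to each array in fixed amounts, also had unequal means in the groups, though their ranges overlapped. They had mean log2 signals from 11.24 to 11.44 (mean 11.33) in high muscling and from 11.09 to 11.47 (mean 11.24) in low muscling arrays, which were not tested against each other. Over the 40 arrays they correlated with PSMB9 at r = -0.495 (rho = -0.525, permutation p = 0.00124 and 0.00069, adjusted p of r over 35 relations 0.00362), and at -0.369 with sire means removed (adjusted p = 0.170). For B2M r was -0.409 (rho = -0.400, permutation p = 0.00952 and 0.0121, adjusted p of r 0.0222) and for PSMB10 -0.370 (rho = -0.425, permutation p = 0.0192 and 0.00688, adjusted p of r 0.0354), with -0.040 and -0.066 once sire means were removed. Without the 2 animals farthest from the median these r were -0.476, -0.431 and -0.390 for PSMB9, B2M and PSMB10. With these controls as a covariate, B2M kept its call and PSMB9 (-0.45, adjusted p = 0.123) and PSMB10 (-0.45, adjusted p = 0.0965) did not. With each array centred on its median, 564 genes were called lower and 93 higher, 85.8% lower in place of 70.7%, and the same number of members, 3, was called. The log2 3' over 5' signal of the GAPDH control, also among the 35 relations, averaged 0.30 in high and 0.23 in low muscling arrays. Its smallest adjusted p of r was 0.110, for PSME2 (r = 0.288, rho = 0.235, permutation p = 0.0726 and 0.145). That r was 0.192 without the 2 farthest animals, and 0.432 with sire means removed (adjusted p within families 0.155).

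Within the muscling groups, the test between families of different sires called 22.0% of all genes (limma moderated F test, 1402 of 6360 genes) and none of the 7 members. The smallest adjusted p among the members was that of B2M (0.113, unadjusted p = 0.0361), followed by PSME1 (0.142) and PSMB9 (0.204). Of the 4 contrasts between sires, only that of sire 17 with the mean of sires 16 and 5 called a member. There B2M was lower in the progeny of sire 17 by -0.40 (log2, SE 0.13, adjusted p = 0.0341), in a contrast that called 9.70% of genes lower.

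The 5 progeny of sire 17 had B2M signals of 4472, 4962, 5783, 6061 and 6987. The progeny of sire 16 ranged from 6070 to 8857 and those of sire 5 from 5413 to 8717, so 4 of the 5 lay below every progeny of sire 16 and 2 below every progeny of sire 5. Among the other members the progeny of sire 17 ranged widely in PSMB9 (482 to 1307) and PSMB10 (206 to 607) and narrowly in TAP1 (197 to 227). The contrast of sire 11 with sires 2 and 7 called 11.8% of genes lower and no member in either direction, that of sire 2 with sire 7 called 0 genes, and that of sire 16 with sire 5 called 2 genes, neither a member.

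The members varied together from animal to animal. Over the 40 animals all 21 pairs had a positive Pearson r, from 0.252 to 0.841 with a median of 0.582, and 20 of the 21 had a permutation p under 0.05 (two-sided, 100000 permutations, unadjusted). With the mean of each sire family removed all 21 stayed positive (0.119 to 0.858, median 0.538), and 16 had a p under 0.05 when animals were permuted within families. The pairs share the arrays and their scaling, and for comparison the median r of a member with all 6359 other genes lay between 0.011 and 0.046. The weaker pairs were not particular to the members, since many other genes had a higher r. PSME1 ranked 1126 of 6359 genes by r with B2M and 1123 with PSMB10, and TAP1 ranked 1084 with PSME2. In the other direction these ranks were 242, 431 and 882.

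**Figure D4:**
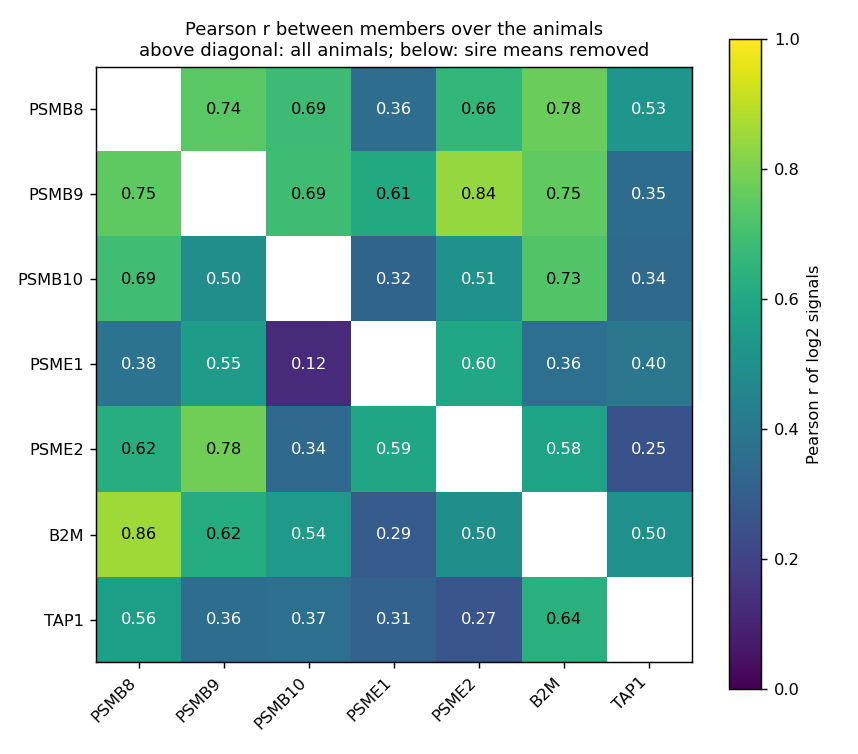
Pearson r between the log2 signals of each pair of the 7 members over the 40 animals (colour and printed value); above the diagonal all animals as measured, below it with the mean of each sire family removed. The strongest pairs are PSMB9 with PSME2 (0.84) above and PSMB8 with B2M (0.86) below the diagonal, and the weakest involve TAP1 or PSME1.

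The strongest pair was PSMB9, a catalytic subunit, with PSME2, a subunit of the cap (r = 0.841, rho = 0.847, permutation p = 1e-05 for both, the smallest 100000 permutations can give). It was 0.822 without the 2 animals farthest from the median of PSMB9, and 0.784 with sire means removed. PSME2 ranked 1 of 6359 genes by r with PSMB9, and PSMB9 ranked 1 for PSME2. In the separate test across genes with sire as a fixed effect, this pair was called in both directions (adjusted p = 0.000449 and 0.000175), though not without the progeny of sire 17 (0.0880 and 0.258).

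PSMB8 with B2M came next (r = 0.776, rho = 0.784, permutation p = 1e-05 for both), and rose to 0.858 with sire means removed. It was positive in each of the 6 families, 0.876 over high muscling and 0.798 over low muscling animals. In both groups the animals with more PSMB8 signal had more B2M signal. B2M was the gene with the smallest p in the co-variation fit on PSMB8 (adjusted p = 4.50e-06), and PSMB8 in that on B2M (2.77e-07). With the mean over all probe sets of each gene both were still called, but with a larger adjusted p (0.0243 and 0.0278).

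**Figure D5:**
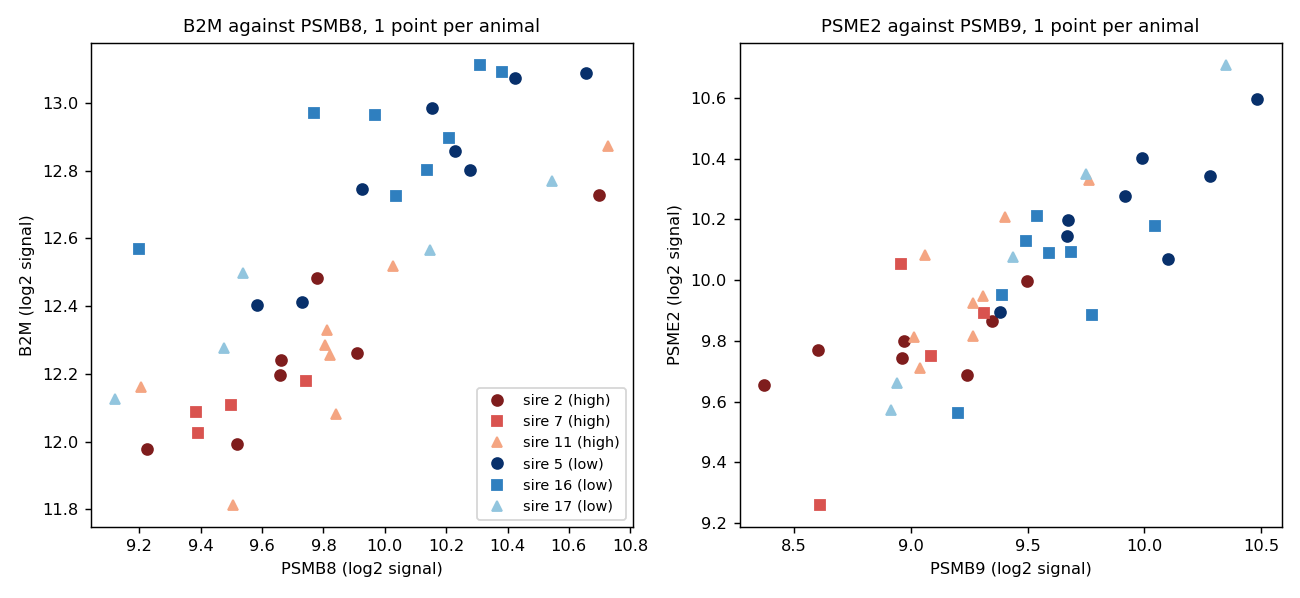
Log2 signals of B2M against PSMB8 (left) and of PSME2 against PSMB9 (right), 1 point per animal, with colour and shape giving the sire and red and blue shades the high and low muscling groups. Both pairs rise together (r = 0.776 and 0.841 over all animals), within the red points (0.876 and 0.700) and within the blue points (0.798 and 0.864).

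The 3 replacement subunits were also correlated with each other, PSMB8 with PSMB9 at r = 0.742, PSMB9 with PSMB10 at 0.691 and PSMB8 with PSMB10 at 0.686. With sire means removed these r were 0.752, 0.495 and 0.692. PSMB9 with PSMB10 was positive in only 4 of the 6 families, with a lowest r of -0.373. The PA28 partners PSME1 and PSME2, whose products form 1 ring, reached 0.597 (rho = 0.632, permutation p = 4e-05 and 2e-05), with 0.172 over high and 0.704 over low muscling animals. The difference between these was not tested. TAP1 had the lowest mean r with the other members (0.395). Of its neighbours on the chromosome, PSMB8 reached 0.526 with it and PSMB9 0.352. The single pair with a p over 0.05 was PSME2 with TAP1 (r = 0.252, rho = 0.265, permutation p = 0.118 and 0.0990).

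The co-variation test asked, for each member, which of 6359 other genes followed it within sire families (limma, sire as fixed effect, adjusted p over all genes). It called 9 genes (0.142%) as positive for PSMB8, 7 (0.110%) for PSMB9, 1 each (0.0157%) for PSMB10, PSME2 and B2M, and 0 (0%) for PSME1 and TAP1. Members were 8 of these 19 calls, in which each pair of members counts in both directions and other genes count in 1 only. Besides B2M, PSMB8 was followed by PSMB9 (adjusted p = 0.000397) and PSMB10 (0.00453), PSMB9 by PSMB8 (0.000449), and PSMB10 by PSMB8 (0.0189). The calls between PSMB8 and PSMB10 hung on single families. PSMB8 was not called for PSMB10 without sire 11, 2, 16 or 17 (adjusted p = 0.0690, 0.135, 0.168 and 0.345). PSMB10 was not called for PSMB8 without sire 17 (0.190).

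Of the 8 other genes that followed PSMB8 or PSMB9, 4 are on the list of interferon response genes, namely IDO1, WARS1, IFI16 and IFIT5. That list made up 31 of the 6360 genes tested, and its enrichment was not tested. Both members were followed by IDO1, the interferon-induced enzyme that breaks down tryptophan (adjusted p = 0.000610 and 0.0275), and by WARS1, the interferon-induced tryptophanyl-tRNA synthetase (0.00115 and 0.0118). Both were also followed by VAMP8, a SNARE protein of endosome fusion (0.000318 and 0.0132). PSMB8 alone was followed by IFI16, a sensor of DNA (0.0223), by SERPING1, the C1 inhibitor of the complement system (0.0333), and by ERG, a transcription factor of endothelial cells (0.0163). KLC4, a kinesin light chain, went the opposite way (0.0102).

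PSMB9 alone was followed by UBD (adjusted p = 0.00262), which encodes the ubiquitin-like modifier FAT10 that sends proteins to the proteasome, and by IFIT5 (0.0275), an RNA-binding interferon-induced protein. IDO1, WARS1, UBD and IFIT5 were themselves not called between muscling groups, with differences of -0.04, -0.17, -0.35 and -0.08 (log2). Whether PSMB8 and PSMB9 differ in the genes that follow them was not tested.

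By r over the 40 animals, without regard to sire, the 3 genes most like each member were partly the same. They were B2M, WARS1 and PSMB9 for PSMB8, then PSME2, UBD and VAMP8 for PSMB9, and PSMB9, PSMB8 and UBD for PSME2 (r from 0.651 to 0.841). For PSME1 they were ITGB1BP1, an integrin adaptor, and the members PSMB9 and PSME2 (0.661, 0.609 and 0.597). These are ranks within these animals and say nothing of shared function.

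B2M and PSMB10 ranked high with genes that themselves differed between the muscling groups. For B2M they were RAP1B, a small GTPase (r = 0.811), PPIB, a prolyl isomerase of the endoplasmic reticulum (0.802), and CLIC1, a chloride intracellular channel (0.797). All 3 were called lower in high muscling animals, by -0.36, -0.64 and -0.77 (log2). With sire means removed their r with B2M was 0.617, 0.483 and 0.487, below the 0.858 of PSMB8.

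For PSMB10 the genes after B2M (r = 0.730) were SRI, which encodes the calcium-binding protein sorcin (0.711), and RHEB, the GTPase that activates mTORC1 (0.711). SRI and RHEB had high minus low differences of -0.96 and -0.27 (log2), both called. With sire means removed the r of PSMB10 with B2M, SRI and RHEB was 0.538, 0.476 and 0.527. TAP1 was most like GLB1, the lysosomal beta-galactosidase (0.660), then ANKRD13A, a ubiquitin-binding protein (0.586), and CFL1, the actin-severing cofilin (0.576). None of these passed the test of the muscling groups.

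The constitutive 20S genes encode the subunits that the immunoproteasome shares with the constitutive proteasome and those that it replaces. Of the 13 detected, 7 were called lower in high muscling animals, 0 were called higher and 6 did not pass. All 13 had a negative difference and the median was -0.25 (log2). Over all genes, 5.50% were called lower and 3551 of 6360 had a negative difference. The smallest p were those of PSMB4 (-0.32, SE 0.07, adjusted p = 0.00376) and PSMA3 (-0.34, SE 0.08, adjusted p = 0.00501), subunits that occur in both forms of the barrel. PSMA1, PSMA5, PSMA6, PSMB3 and PSMB7 were the others called.

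Of the replaced catalytic subunits, only PSMB7 was called (-0.22, SE 0.07, adjusted p = 0.0284), while PSMB5 (-0.17, SE 0.10, adjusted p = 0.325) and PSMB6 (-0.11, SE 0.09, adjusted p = 0.488) were not. PSMB5 and PSMB6 had the smallest p of this list between sire families (F test, adjusted p = 5.29e-06 and 0.000137). PSMB8 and PSMB9, which replace them, had adjusted p of 0.533 and 0.204 there.

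The ratio of each replacement subunit to the subunit it replaces was taken within each array. For PSMB9 over PSMB6 the family means of the log2 ratio were -3.09, -3.40 and -3.34 for sires 11, 2 and 7, and -3.01, -2.62 and -2.72 for sires 16, 17 and 5. The high minus low difference of these means was -0.49, with every high family below every low family (exact permutation p = 0.1, the smallest possible). The ratio of PSMB10 over PSMB7 differed by -0.26 with the same order (p = 0.1), and that of PSMB8 over PSMB5 by -0.13 with overlapping families (p = 0.6). Only the differences can be read, since the 2 probe sets of a ratio bind unequally.

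Proteasome assembly factors and caps gave 2 calls among 6 genes, both lower in high muscling animals, beside 5.50% of all genes called lower. They were POMP, the chaperone that helps to build the barrel (-0.31, SE 0.07, adjusted p = 0.00406), and PSMG2, an assembly chaperone (-0.27, SE 0.07, adjusted p = 0.0178). PSME4, the PA200 cap of the constitutive barrel, had the opposite sign (0.30, SE 0.11) and did not pass (adjusted p = 0.0929). The median of the list was -0.11.

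In the rest of the MHC class I pathway, none of the 7 detected genes was called, although 7 of 7 differences were negative (median -0.32, log2). The smallest p were those of PDIA3, a disulfide isomerase of the peptide-loading complex (-0.32, SE 0.11, adjusted p = 0.0538), and CALR, its chaperone calreticulin (-0.44, SE 0.17, adjusted p = 0.104). TAP2, the partner of TAP1 in the transporter, had a difference of -0.22 (SE 0.10, adjusted p = 0.187). The class I heavy chain entry on the list, BOLA, had a difference of -0.54 (SE 0.67, adjusted p = 0.703). BOLA-N, an entry not on the list and named after its values were seen, had a difference of 0.16 (SE 0.33, adjusted p = 0.842) and was called between sire families (F test, adjusted p = 0.00668). Heavy chains belong to a family of near-identical genes that array probes may not tell apart.

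In MHC class II presentation, which serves peptides from outside the cell, 3 of 13 detected genes were called, beside 5.50% of all genes called lower. BOLA-DRA (-1.10, SE 0.24, adjusted p = 0.00407), BOLA-DQA2 (-1.08, SE 0.28, adjusted p = 0.0133) and BOLA-DRB3 (-0.72, SE 0.21, adjusted p = 0.0248) were lower in high muscling animals, while the list median was -0.10. These are bovine names for members of a multigene family, so the sheep gene behind each is uncertain. Of 31 detected interferon response genes 2 were called lower and 0 higher, a share near the 5.50% of all genes called lower. They were RSAD2 (-0.56, SE 0.17, adjusted p = 0.0301), which encodes the antiviral protein viperin, and PSMA6 (-0.28, SE 0.07, adjusted p = 0.00731), a proteasome subunit that is also counted in the constitutive list. The median of the list was -0.13.

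Of 18 detected leukocyte markers 4 were called lower in high muscling animals, 0 were called higher and 14 did not pass. The share of all genes called lower was 5.50%. The difference was negative in 17 of 18, with a median of -0.39 (log2), beside 3551 of 6360 and -0.04 over all genes. The calls were LAPTM5 (-0.57, adjusted p = 0.0147), AIF1 (-0.95, 0.0156), CORO1A (-0.94, 0.0224) and ITGB2 (-0.63, 0.0455), genes of macrophages and other white blood cells. The summed signal of the 18 markers ranged from 1876 to 3250 in high muscling and from 2020 to 5406 in low muscling animals. The defining markers PTPRC, CD2, CD5, CD79A and MS4A1 were below the detection threshold. In whole muscle, fewer cells of a type and less RNA per cell cannot be told apart.

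The mean log2 signal of the leukocyte markers correlated with B2M at r = 0.702 (rho = 0.688), with PSMB9 at 0.677 (rho = 0.666), with PSMB10 at 0.671 (rho = 0.743) and with PSMB8 at 0.628 (rho = 0.643), each with a permutation p of 1e-05 or 2e-05 and an adjusted p of 8.75e-05 over 35 relations. Leaving out the 2 animals farthest from the median left these r at 0.695, 0.632, 0.690 and 0.629. With sire means removed they were 0.426, 0.483, 0.483 and 0.561, with adjusted p of 0.0409, 0.0309, 0.0356 and 0.0107 for permutations within families. For TAP1, PSME2 and PSME1 r with the markers was 0.394, 0.383 and 0.341, with adjusted p within families of 0.152, 0.533 and 0.533. The part of leukocytes in the differences of the members was not tested.

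The leukocyte markers were not the only list that the members followed. With the mean of the constitutive 20S genes r was 0.728 for B2M (rho = 0.750), 0.654 for PSMB9 (rho = 0.657) and 0.649 for PSMB10 (rho = 0.703), each with a permutation p of 1e-05 or 2e-05 and an adjusted p of 8.75e-05. With sire means removed these were 0.218, 0.248 and 0.311, with adjusted p within families of 0.470, 0.385 and 0.193. With the mean of the MHC class II genes r was 0.641 for PSMB8 (rho = 0.619, permutation p = 2e-05 and 3e-05), 0.636 for PSMB10 (rho = 0.663, permutation p = 5e-05 and 2e-05), 0.593 for PSMB9 (rho = 0.563, permutation p = 5e-05 and 0.00019) and 0.579 for B2M (rho = 0.541, permutation p = 0.00015 and 0.00041), with adjusted p of r between 8.75e-05 and 0.000477. With sire means removed they were 0.587, 0.524, 0.426 and 0.419, with adjusted p within families of 0.00945, 0.0107, 0.0515 and 0.0538. Without the 2 animals farthest from the median, r was 0.701, 0.615 and 0.594 for the constitutive 20S genes and 0.610, 0.646, 0.543 and 0.538 for the MHC class II genes, in the same orders. No test compared these lists with each other.

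Of the fibroblast markers 5 of 10 were called lower and 1 higher (median -0.44), beside 5.50% and 2.28% of all genes. COL3A1 (-1.08, adjusted p = 0.0251), COL1A1, COL1A2, FBN1 (-0.79, adjusted p = 0.0131) and DCN were lower, and THY1, a surface protein also of lymphoid cells, was higher (0.64, adjusted p = 0.00537). No endothelial (0 of 12), adipocyte (0 of 6) or muscle fibre (0 of 9) marker was called, the smallest p being those of EMCN (-0.28, adjusted p = 0.0922), PPARG (-0.53, 0.280) and MYH1 (0.11, 0.264). The difference was negative in 8 of 12 endothelial, 5 of 6 adipocyte and 1 of 9 muscle fibre markers. The medians were -0.12, -0.15 and 0.07 (log2). The summed signal of the 9 muscle fibre markers ranged from 195186 to 266517 in high and from 188230 to 255547 in low muscling animals. Its medians were 221661 and 206582, and their difference was not tested.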

How the data were processed

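The deposited values are linear intensities that the authors computed with MAS5 (version not given in the sources used here), with 1 value for each probe set on Affymetrix GeneChip Bovine Genome arrays. Array 2% trimmed means lay between 200.07 and 200.09, array medians between 56.1 and 67.1 and signals between 0.1 and 36463.9. The number of arrays limits the precision, and for the muscling groups so does the number of sires, 3 per group. Values were taken to log2. Of 24016 probe sets other than 112 controls, 13292 had 1 gene symbol, 86 several and 10638 none in the annotation used. A gene was represented by its brightest probe set and tested if its mean signal reached 61.8, the median over all probe sets other than controls.

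For the muscling groups, limma 3.58.1 (R 4.3.3) was run with a random block for sire, whose correlation was estimated as 0.135. It also tested sire families by a moderated F test on 4 degrees of freedom and co-variation with sire as a fixed effect, each with Benjamini-Hochberg adjustment over all genes tested and called at an adjusted p under 0.05. These p-values measure the spread between half-sib animals of a few sires. Correlations and permutations used numpy 2.4.6 and scipy 1.17.1 in Python 3.11.15. The scripts were tested on simulated data. The members, gene lists and tests were chosen with earlier results of these data known. Genes named are the members and, among others that met the rule, the 3 genes with the highest r with each, the 2 genes of each list with the smallest p in the group or sire test, called genes where a list has 5 or fewer, and genes called in the co-variation test. The last, the 7 constitutive subunits called, PSME4, TAP2, BOLA, BOLA-N and the undetected markers were chosen after their values were seen. Processing alternatives concerned scaling, low values, probe sets, sire, spiked controls and single families. No member sequences were used.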

Additional observations from a re-analysis of the deposited data

Results flagged for a closer look

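The level of each of the 7 members was searched for outlying animals within each of the 6 sire families, by the gap of the highest or lowest animal to its nearest neighbour relative to the family's range. None of the 42 family and gene combinations passed the limit, which chance alone passes in about 1 of 20 groups.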

How the results depend on the processing

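The direction of the differences in PSMB9, PSMB10 and B2M held in every alternative run, and that of TAP1 turned without sire 11 or sire 5 (0.015 and 0.0024, log2). The 495 genes and 3 members called between muscling groups became 1586 and 5 with no block for sire, 0 and 0 with sire means as samples, and 309 and 1 with the hybridisation controls as covariate. Leaving out each sire family gave 23 (without sire 5) to 1221 (without sire 17) genes and 0 to 3 members. With no block, PSME1 and PSME2 were also called (adjusted p = 0.0340 and 0.0250). Quantile normalization, median centring, no detection filter, a floor and a pseudocount left 3 members called, and the mean over all probe sets left 2. No member was called between sire families in any of the 7 alternatives. Called co-variation pairs of members went from 8 of 42 to 24 with no term for sire and to between 4 (without sire 17) and 10 when a family was left out. Pairs of members with a permutation p under 0.05 went from 20 to 9 of 21 in high muscling animals alone, and the r of PSMB10 and PSME1 turned from 0.322 to -0.013 in low muscling animals alone (p = 0.956). The cause of these changes was not tested. No paired analysis was possible because the labels number progeny across sires and pair no animals. With 3 sires per group, an effect of single sires cannot be told apart from an effect of muscling. Bovine probes on sheep RNA add unequal binding, which the arrays do not measure.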
